A study of Mus musculus with 20 samples.

Results

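The genes described here encode the proteasome and the proteins that build, activate and inhibit it. They were chosen by symbol: every protein-coding gene of the deposited table whose mouse symbol begins with Psma, Psmb, Psmc, Psmd, Psme, Psmf or Psmg followed by a digit was taken. This gave 50 genes of 21683 protein-coding genes and of 48440 genes in all. The rule itself reads symbols and no measured value. Of the 50, 48 passed the filter on low values that was applied to the whole table. The other two, Psma8, a testis form of an alpha subunit, and Psmb11, a thymus form of a beta subunit, never exceeded 2 reads in a library and were not tested. Psmc3ip, a meiotic recombination factor, matches the symbol rule without being a proteasome subunit and is counted among the 48 tested; it is described last of the members.

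The proteasome degrades proteins that carry ubiquitin chains. Its 20S core is a barrel of alpha rings, which gate entry, and beta rings, which hold the proteolytic sites, and its 19S cap recognises ubiquitin, removes it and unfolds the substrate with a ring of ATPases. Other particles, PA28 and PA200, can take the place of the cap, and dedicated chaperones assemble core and base. In fat cells the proteasome turns over lipid-droplet and metabolic proteins, and its genes are known targets of the transcription factor Nfe2l1.

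The cells were 3T3-L1 adipocytes, a mouse preadipocyte line (strain given as Swiss mouse) turned into fat cells in culture, and the libraries were made from total RNA with a strand setting that is not given in the sources used here. All 8 groups had been differentiated alike, with troglitazone at 10 µM, dexamethasone at 1 µM, isobutyl methylxanthine at 0.5 mM and insulin at 5 µg/ml, insulin being the sole addition from day 4 and plain growth medium being used from day 6. In the Foxk1 set, 3 libraries with constituent overexpression of FOXK1 stood against 3 with an empty vector, and 3 with Foxk1 shRNA against 3 with scrambled shRNA. In the Foxk2 set the same 4 kinds of group held 2 libraries each, so that there were 20 libraries. Foxk1 and Foxk2 are paralogous forkhead transcription factors. The vector, the promoter that drove it and whether replicates came from separate cultures are not stated in the labels, so the p-values below measure no more than the spread among libraries, which may be technical.

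The Foxk1 libraries held 16739763 to 20772823 assigned reads and the Foxk2 libraries 31378224 to 36157008, so the Foxk2 set was the deeper and had fewer replicates. Foxk1 fell from 8.32 ± 0.424 to 3.25 ± 0.265 RPKM in Foxk1 knockdown (SD, n = 3 and 3) but was also lower, at 6.1 ± 0.0553 against 7.55 ± 0.468 RPKM (SD, n = 3 and 3), in the libraries labelled Foxk1 overexpression. Every direction given for these libraries is therefore that of a label which the Foxk1 level goes against. Foxk2 rose from 13.4 ± 0.123 to 20 ± 0.0356 RPKM in Foxk2 overexpression and fell from 12.9 ± 0.282 to 3.27 ± 0.0271 RPKM in Foxk2 knockdown (SD, n = 2 and 2 each). Each factor also changed when the other was manipulated: Foxk2 rose from 11.3 ± 0.294 to 13.9 ± 0.334 RPKM under the Foxk1 overexpression label (SD, n = 3 and 3), and Foxk1 fell from 11.6 ± 0.0573 to 7.14 ± 0.227 RPKM in Foxk2 overexpression (SD, n = 2 and 2). In the knockdowns Foxk2 fell with Foxk1 shRNA (-0.19, adjusted p = 0.00156) and Foxk1 rose with Foxk2 shRNA (0.30, adjusted p = 0.00271). All 8 adipocyte markers were present, with a summed level of 7287 to 13671 RPKM over the 20 libraries, and of 6 macrophage genes Adgre1, Ptprc and Itgam never exceeded 0.5 RPKM. The other macrophage genes were low but detected, the 6 together summing to 3.7 to 7.93 RPKM. Among these Cd14 was called in all 4 comparisons (-1.08 under the Foxk1 overexpression label, 1.02 in Foxk1 knockdown, -0.63 in Foxk2 overexpression and 0.84 in Foxk2 knockdown) and Cd68 rose in Foxk2 knockdown (0.69). Csf1r was called under the Foxk1 overexpression label, where it rose (0.25) while Cd14 fell. Its mean was 1.43 RPKM in the Foxk1 empty vector controls and 0.0266 RPKM in the Foxk2 ones.

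Most proteasome genes were lower after Foxk2 knockdown and higher in both overexpression comparisons, with the smallest shift after Foxk1 knockdown. Differences are on the log2(RPKM + 0.5) scale, where RPKM is the read count scaled by exon length and by library size, and a gene was called where the adjusted p of a limma model over all 15981 genes tested, two-sided with Benjamini-Hochberg adjustment, was under 0.05. In Foxk2 knockdown 41 of the 48 genes fell and 0 rose, where 15.7% of all genes tested fell and 18.0% rose. In Foxk2 overexpression 27 rose and 5 fell, against 23.0% and 22.0% of all genes. That count was 15 and 3 in a model of the 2 groups alone, the falls were 9 with quantile normalization, and they were 1 without empty vector replicate 2 and 2 without Foxk2 overexpression replicate 1. In the libraries labelled Foxk1 overexpression 27 rose and 2 fell, against 24.1% and 23.8% of all genes. In Foxk1 knockdown 4 rose and 15 fell, against 20.4% and 15.5% of all genes.

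Shares of the members put these counts on one footing: 85.4% fell in Foxk2 knockdown, 56.2% rose in Foxk2 overexpression, 56.2% rose under the Foxk1 overexpression label and 31.2% fell in Foxk1 knockdown. The median log2 difference over the 48 genes was -0.276 in Foxk2 knockdown, 0.166 in Foxk2 overexpression, 0.127 under the Foxk1 overexpression label and -0.066 in Foxk1 knockdown. Over all genes tested the corresponding medians were 0.0, 0.002, 0.0 and 0.017. In Foxk2 knockdown the members ran from -0.579 at the 5th percentile to 0.017 at the 95th, and all genes tested from -0.434 to 0.678. Counting instead the genes whose 2 groups did not overlap in RPKM, 44 were lower and 2 higher in Foxk2 knockdown (32.5% and 34.7% of all genes tested), and 31 higher and 7 lower in Foxk2 overexpression (36.2% and 34.1%). Under the Foxk1 label 32 were higher and 2 lower (26.4% and 25.8%), and in Foxk1 knockdown 4 were higher and 19 lower (25.3% and 18.9%). The Foxk1 knockdown count of calls depended on 1 library: without Foxk1 knockdown replicate 3, 6 members fell in place of 15.

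**Figure D1:**
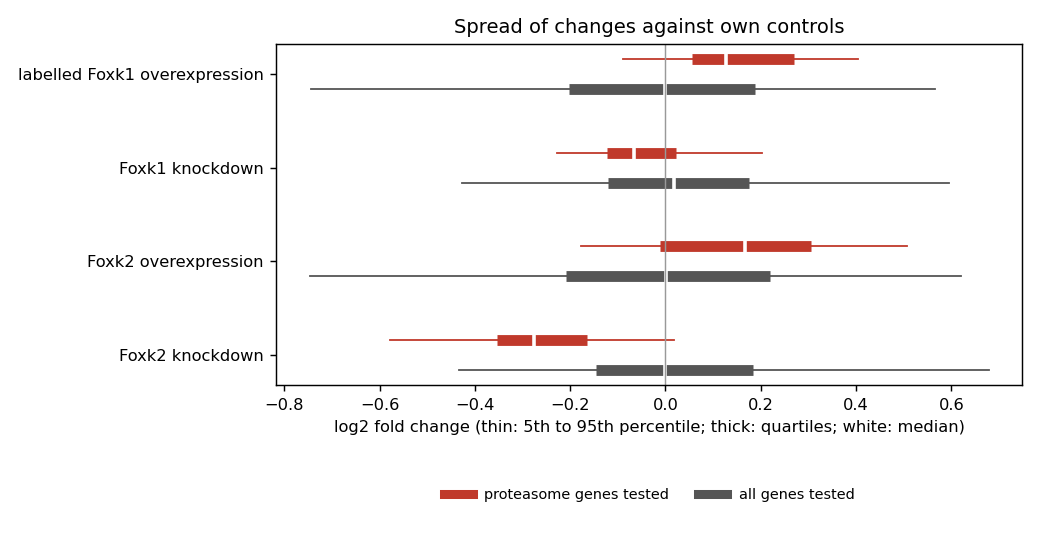
Horizontal axis, log2 fold change against the comparison's own controls; vertical axis, the 4 comparisons. Red marks the 48 proteasome genes tested and grey all 15981 genes tested, with the thin line from the 5th to the 95th percentile, the thick bar between quartiles and the white tick at the median; the red bar lies wholly below 0 in Foxk2 knockdown, where the median was -0.276.

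The libraries themselves showed the same shift. In the Foxk2 set the 50 genes together held 0.595% and 0.598% of assigned reads in the scrambled shRNA controls and 0.487% and 0.498% after knockdown, so the groups did not overlap. They held 0.525% and 0.543% in the empty vector controls and 0.589% and 0.626% in Foxk2 overexpression. In the Foxk1 set the share ran from 0.531% to 0.549% in the empty vector controls and from 0.601% to 0.611% in the libraries labelled overexpression. It ran from 0.492% to 0.506% in the scrambled shRNA controls and from 0.461% to 0.472% after Foxk1 knockdown, again with no overlap. The 4 control groups differed among themselves by more than some of these steps. Such a pooled share weighs long and abundant genes most, among them Psma1, whose mean went from 105 to 60.5 RPKM in Foxk1 knockdown. Of the 48 genes tested, 29 were not called in that comparison.

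Markers of other cell states moved with the members and in the opposite direction. All 8 fibroblast and preadipocyte markers, which included Pdgfra, Dcn and Col1a1, rose in both knockdowns and fell in both overexpression comparisons. Their summed level was 335 to 336 RPKM in the Foxk2 knockdown controls and 941 to 989 RPKM after Foxk2 knockdown, and 495 to 505 against 205 to 220 RPKM in Foxk2 overexpression. In the Foxk1 set it was 1165 to 1259 against 2104 to 2211 RPKM in knockdown, and 612 to 743 against 221 to 235 RPKM in the labelled overexpression. The summed adipocyte markers were lower in the manipulated group of every comparison, at 8719 to 8749.6 against 13333 to 13671 RPKM under the Foxk1 overexpression label and at 7287 to 7295 against 11717 to 11853 RPKM in Foxk2 overexpression. That sum is carried by the most abundant genes, and single markers differed. Of the 8, 5 fell and 1 rose under the Foxk1 label (Cebpa, 0.31), and 6 fell and 1 rose in Foxk2 overexpression (Lpl, 0.26). In Foxk1 knockdown 5 fell and 0 rose, and in Foxk2 knockdown 3 fell and 0 rose. The part of the markers of either kind in the proteasome result was not tested, and in bulk RNA fewer cells of a type and less RNA per cell cannot be told apart.

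**Figure D2:**
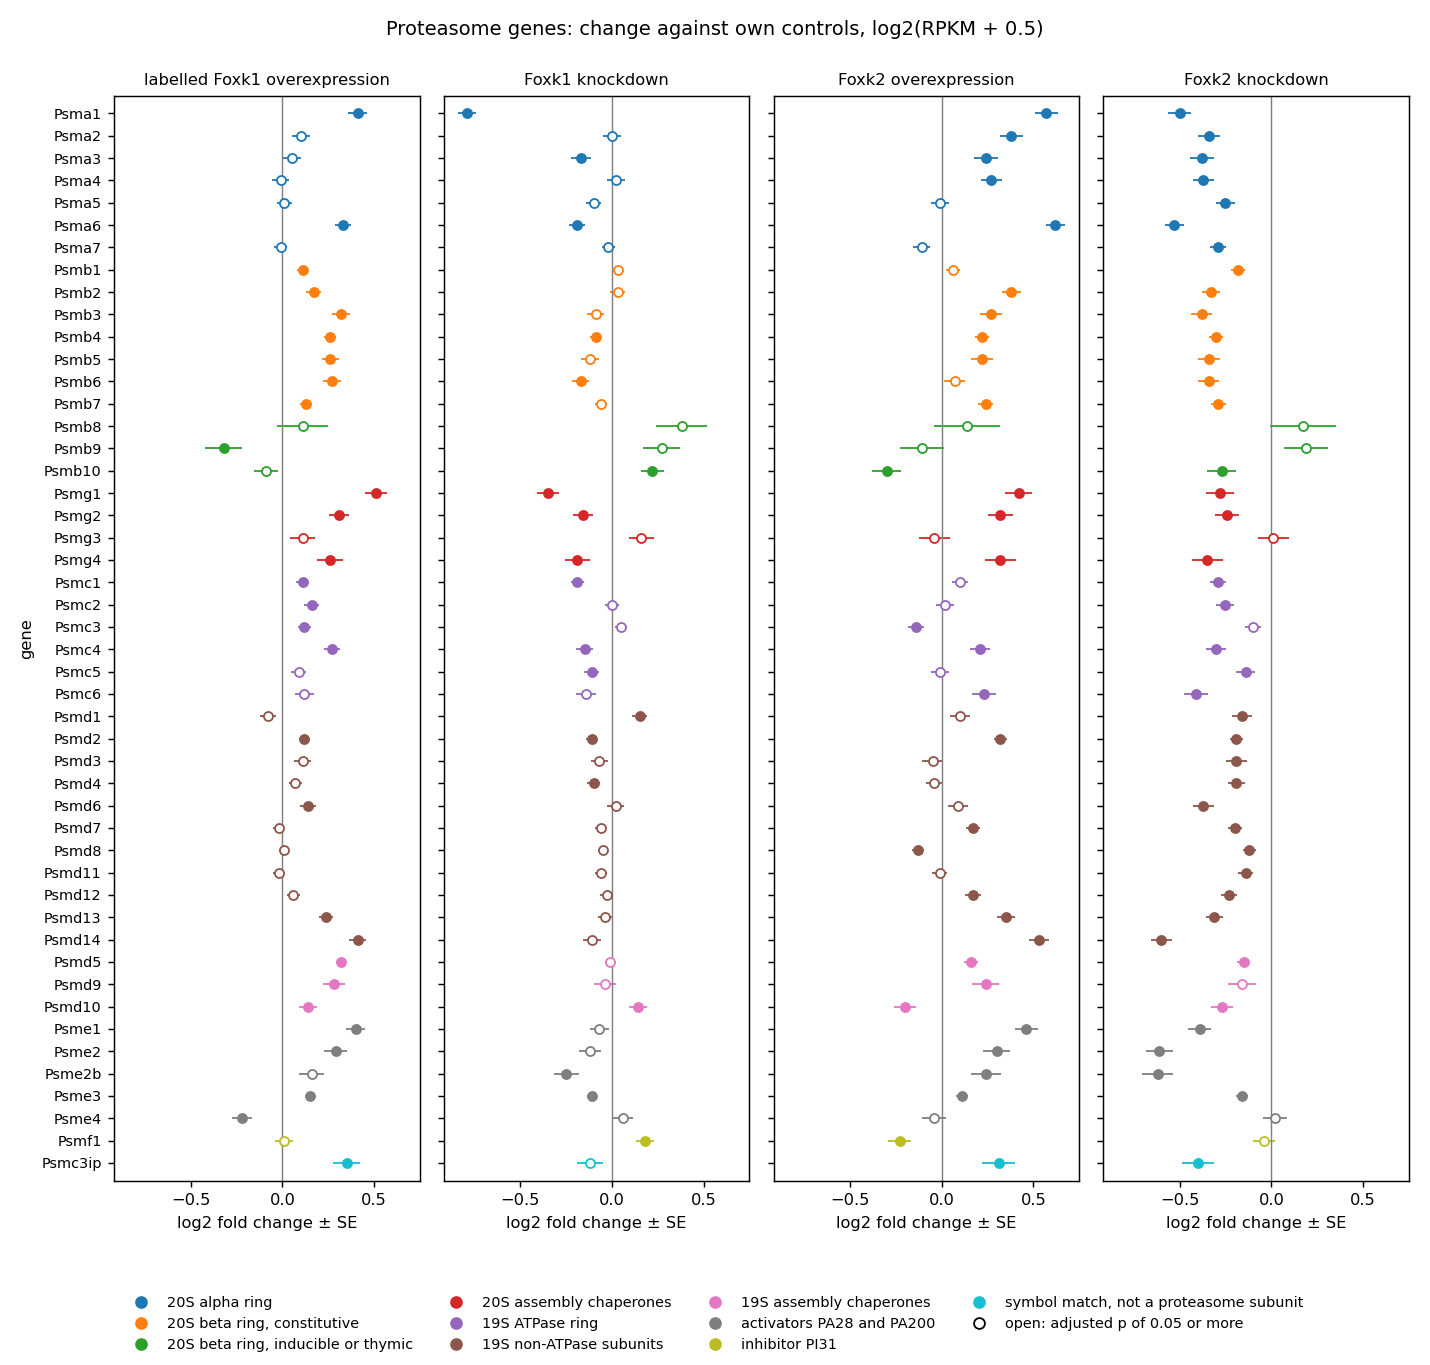
Horizontal axis, log2 fold change ± SE on the log2(RPKM + 0.5) scale in each of the 4 comparisons; vertical axis, the 48 genes tested, grouped and coloured by role. Filled points were called at an adjusted p under 0.05 and open points were not; in Foxk2 knockdown 41 filled points lie left of 0, while the inducible subunits Psmb8 and Psmb9, the activator Psme4 and the chaperone Psmg3 lie to its right without a call.

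The constitutive core and cap were expressed at high and uneven levels. Per length, the summed level of the 7 tested alpha subunits was 525 to 546 RPKM and that of the 7 constitutive beta subunits 574 to 611 RPKM in the Foxk2 overexpression controls. The 6 ATPases summed to 357 to 358 RPKM and the 11 non-ATPase subunits to 562 to 571 RPKM there. Among alpha subunits in that group Psma3 was lowest at a mean of 17.1 RPKM and Psma6 highest at 162 RPKM, although each occurs at the same number in the particle. The sets differed in these levels as well: the mean of Psmb7 was 72.8 RPKM in the Foxk1 empty vector controls and 35.1 RPKM in the Foxk2 ones, and that of Psma4 was 55.6 and 26.1 RPKM, while that of Psma7 was 53.4 and 53.7 RPKM. Of the 31 constitutive subunits of core and cap that the symbol rule took, 30 fell in Foxk2 knockdown, the exception being the ATPase Psmc3 at -0.10. This count leaves out cap subunits with other symbols, such as Adrm1, which was at -0.06 there without a call. Of the same 31, 17 rose and 2 fell in Foxk2 overexpression, 17 rose and 0 fell under the Foxk1 overexpression label, while Foxk1 knockdown gave 1 rise and 10 falls. Of all genes tested, 18.0% rose and 15.7% fell in Foxk2 knockdown, and 23.0% and 22.0% in Foxk2 overexpression. The shares were 24.1% and 23.8% under the Foxk1 label and 20.4% and 15.5% in Foxk1 knockdown. They are the background to the counts of each subcomplex below.

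Alpha subunits form the outer rings of the core, whose N-terminal tails gate the channel. All 7 tested fell in Foxk2 knockdown (median -0.371), 5 rose in Foxk2 overexpression, 2 rose under the Foxk1 overexpression label and 3 fell in Foxk1 knockdown. The 2 rises of 7 lie near the 24.1% of all genes that rose under that label. Psma1 (ENSMUSG00000030751.18, chromosome 7, 114264606 to 114276118, minus strand, mm10) changed in every comparison. Its level was 102, 109 and 104 RPKM in the scrambled shRNA controls of the Foxk1 set and 60.7, 63.0 and 57.9 RPKM after Foxk1 knockdown, so that the groups lay far apart. The log2 fold change was -0.79 ± 0.050 (SE, n = 3 and 3, adjusted p = 1.20e-08), larger in size than that of any other member in any comparison.

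Psma1 was at 119 and 119.7 RPKM in the Foxk2 knockdown controls and at 82.9 and 85.4 RPKM after knockdown. It was at 91.3 and 96.3 RPKM in the Foxk2 overexpression controls and at 136 and 144 RPKM in Foxk2 overexpression. In the labelled Foxk1 overexpression it was at 194, 192 and 192 RPKM, above all 3 of its controls at 138, 160.3 and 138 RPKM. These gave log2 fold changes of -0.50 ± 0.062 (SE, n = 2 and 2, adjusted p = 1.28e-05), 0.57 ± 0.062 (SE, n = 2 and 2, adjusted p = 1.67e-06) and 0.41 ± 0.050 (SE, n = 3 and 3, adjusted p = 6.94e-06). Its controls were not alike across the set: within the Foxk1 libraries alone the mean was 145 RPKM with the empty vector and 105 RPKM with scrambled shRNA.

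Psma6 (ENSMUSG00000021024.14, chromosome 12, 55384222 to 55418454, plus strand) moved in the same directions. It was at 197 and 203 RPKM in the controls and 134 and 142 RPKM after Foxk2 knockdown, and at 161 and 162 RPKM against 235 and 263 RPKM in Foxk2 overexpression. The groups were separate in both, with log2 fold changes of -0.53 ± 0.052 (SE, n = 2 and 2, adjusted p = 1.15e-06) and 0.62 ± 0.052 (SE, n = 2 and 2, adjusted p = 1.12e-07), the latter the largest rise of any member. In the Foxk1 set it was at 116, 117 and 118 against 106, 103 and 98.0 RPKM in knockdown, and at 162, 162 and 159 against 198, 214 and 198 RPKM in the labelled overexpression. The differences were -0.19 ± 0.042 (SE, adjusted p = 0.00231) and 0.33 ± 0.042 (SE, adjusted p = 8.64e-06; n = 3 and 3 each).

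Of the remaining alpha subunits, Psma3 in Foxk1 knockdown was the one call in the Foxk1 set. Psma2 and Psma4 rose by 0.38 and 0.27 in Foxk2 overexpression and fell by 0.34 and 0.37 in Foxk2 knockdown, but passed the test in neither Foxk1 comparison. Psma5 and Psma7 fell in Foxk2 knockdown (-0.25 and -0.29), and in the other 3 comparisons their values lay between -0.11 and 0.01 and were not called. Psma3 fell in both knockdowns and rose in Foxk2 overexpression, and 23.4% of its transcript is also found in a near-identical annotated copy, Gm13835, so its counts are less certain.

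**Figure D3:**
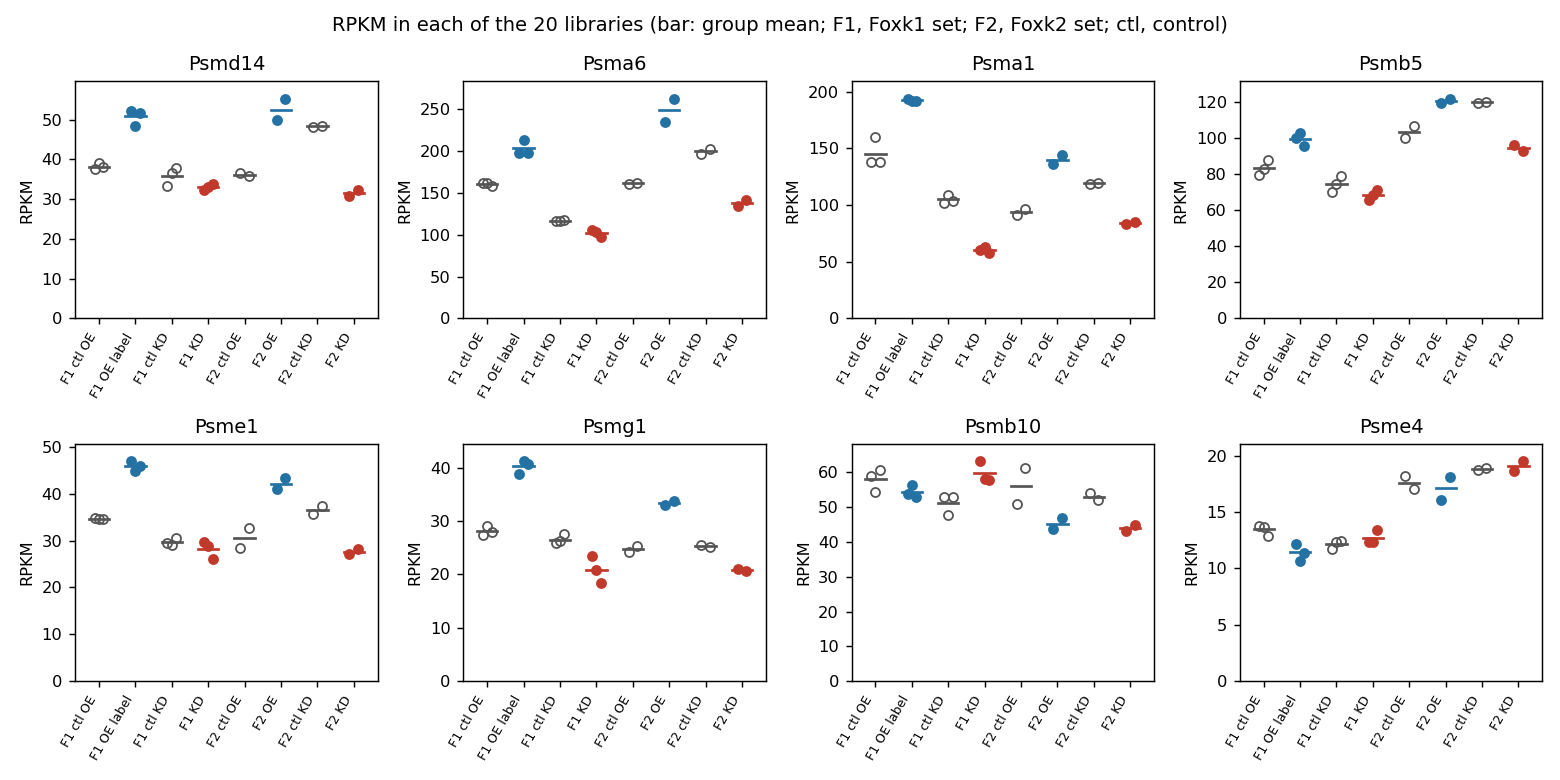
Vertical axes, RPKM of 8 genes; horizontal axes, the 8 groups, with 1 point per library and a bar at the group mean (open grey, controls; blue, overexpression labels; red, knockdown). Psmd14, Psma6 and Psma1 lie apart from their own controls in both Foxk2 comparisons, whereas Psme4 lies between 16.1 and 19.5 RPKM in all 8 libraries of the Foxk2 set.

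Beta subunits line the chamber where substrates are cut. The 7 constitutive beta subunits all fell in Foxk2 knockdown (median -0.334) and all rose in the labelled Foxk1 overexpression (median 0.257), 5 rose in Foxk2 overexpression and 2 fell in Foxk1 knockdown. Psmb5 (ENSMUSG00000022193.6, chromosome 14, 54614119 to 54618022, minus strand) carries the chymotrypsin-like site. It was at 119.8 and 120.2 RPKM in the Foxk2 knockdown controls and at 96.2 and 93.2 RPKM after knockdown, a log2 fold change of -0.34 ± 0.058 (SE, n = 2 and 2, adjusted p = 0.000287). In Foxk2 overexpression it was at 119.8 and 122 RPKM against 100 and 107 RPKM (0.22 ± 0.058, SE, n = 2 and 2, adjusted p = 0.00575), a call that was lost with quantile normalization (0.123) or without empty vector replicate 1 (0.17). The Foxk2 groups were separate in both comparisons.

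In the Foxk1 set Psmb5 was at 79.7, 82.7 and 87.7 RPKM in the empty vector controls and at 100.3, 103 and 95.6 RPKM in the labelled overexpression, with no overlap (0.26 ± 0.047, SE, n = 3 and 3, adjusted p = 0.000346). Its knockdown values of 65.9, 68.7 and 71.3 RPKM overlapped those of the controls at 70.1, 74.7 and 79.2 RPKM (-0.12 ± 0.047, SE, adjusted p = 0.0618). Psmb6 and Psmb7 carry the caspase-like and trypsin-like sites. Psmb6 changed by -0.34 in Foxk2 knockdown, 0.27 under the Foxk1 overexpression label and -0.17 in Foxk1 knockdown, all called, and stood at 0.07 without a call in Foxk2 overexpression. Psmb7 rose in both overexpression comparisons (0.13 and 0.24) and fell in Foxk2 knockdown (-0.29), and it was at -0.06 without a call in Foxk1 knockdown. Psmb1, at a mean of 203 RPKM the most abundant member in the Foxk1 empty vector controls, rose by 0.11 in the labelled Foxk1 overexpression, but its sign turned with quantile normalization (-0.015).

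The inducible beta subunits replace the catalytic ones in immunoproteasomes. Psmb8 (chromosome 17, 34197721 to 34201454) and Psmb9 (chromosome 17, 34181987 to 34187764), neighbours in the class II region of the major histocompatibility complex, were barely expressed. Psmb8 lay between 0.844 and 2.07 RPKM in the 20 libraries and Psmb9 between 0.129 and 0.816 RPKM, which corresponds to 40 to 130 and 9 to 59 reads. Psmb8 was called in none of the 4 comparisons, its nearest approach being Foxk1 knockdown, where libraries at 2.07, 1.22 and 1.60 RPKM overlapped the 3 controls, which ran from 0.95 to 1.28 RPKM (0.38 ± 0.14, SE, n = 3 and 3, adjusted p = 0.0532). Psmb9 was at 0.176, 0.137 and 0.129 RPKM in the labelled Foxk1 overexpression, below all controls at 0.321, 0.347 and 0.262 RPKM. That fall of 0.32 (SE 0.10, n = 3 and 3, adjusted p = 0.0156) is understated by the added 0.5 RPKM, the mean having fallen by 52.6%, and the call was lost without empty vector replicate 2 and with quantile normalization (-0.162).

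Psmb9 stood at 0.27 ± 0.10 (SE, adjusted p = 0.0511) in Foxk1 knockdown, where knockdown libraries at 0.662, 0.816 and 0.544 RPKM overlapped controls at 0.408, 0.589 and 0.424 RPKM. It was at -0.11 (adjusted p = 0.536) in Foxk2 overexpression, with libraries at 0.223 and 0.218 against 0.249 and 0.306 RPKM, and at 0.19 (adjusted p = 0.297) in Foxk2 knockdown, with 0.470 and 0.467 against 0.304 and 0.402 RPKM. Per length, Psmb8 amounted to 0.831 to 3.14% of Psmb5 over the 20 libraries and Psmb9 to 0.146 to 1.38% of Psmb6. Both were thus minor beside the subunits they replace in every library.

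Psmb10 (ENSMUSG00000031897.8, chromosome 8, 105935735 to 105938444, minus strand), the third inducible subunit, was abundant and moved apart from the rest. It was at 63.2, 58.0 and 57.9 RPKM after Foxk1 knockdown, above its controls at 52.9, 47.9 and 52.9 RPKM (0.22 ± 0.064, SE, n = 3 and 3, adjusted p = 0.0139). In Foxk2 knockdown it was at 43.2 and 44.8 RPKM, below controls at 54.0 and 52.1 RPKM (-0.27 ± 0.078, SE, n = 2 and 2, adjusted p = 0.0143). In Foxk2 overexpression it was also lower, at 43.8 and 46.8 RPKM against 51.0 and 61.3 RPKM (-0.30 ± 0.078, SE, n = 2 and 2, adjusted p = 0.00478).

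The groups of Psmb10 did not overlap in these 3 comparisons, but each of the 3 calls was lost when 1 library was left out: scrambled shRNA replicate 2 or Foxk1 knockdown replicate 1 in the first, scrambled shRNA replicate 1 or Foxk2 knockdown replicate 1 in the second, and empty vector replicate 2 in the third, where the value went to -0.171. In the labelled Foxk1 overexpression its libraries at 53.8, 56.5 and 52.8 RPKM overlapped the controls at 58.9, 54.4 and 60.8 RPKM (-0.09, adjusted p = 0.254). As a share of Psmb7, Psmb10 ran from 66.6 to 93.8% in the Foxk1 set and from 109 to 176% in the Foxk2 set, so it lay below its constitutive partner in every Foxk1 library and above it in every Foxk2 library. The sets differed here in Psmb7 more than in Psmb10. In the empty vector controls Psmb10 had means of 58.1 (Foxk1 set) and 56.2 RPKM (Foxk2 set), and Psmb7 of 72.8 and 35.1 RPKM. Within the Foxk2 set the share was 144 to 176% in the empty vector controls and 109% in both Foxk2 overexpression libraries, with no overlap.

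**Figure D4:**
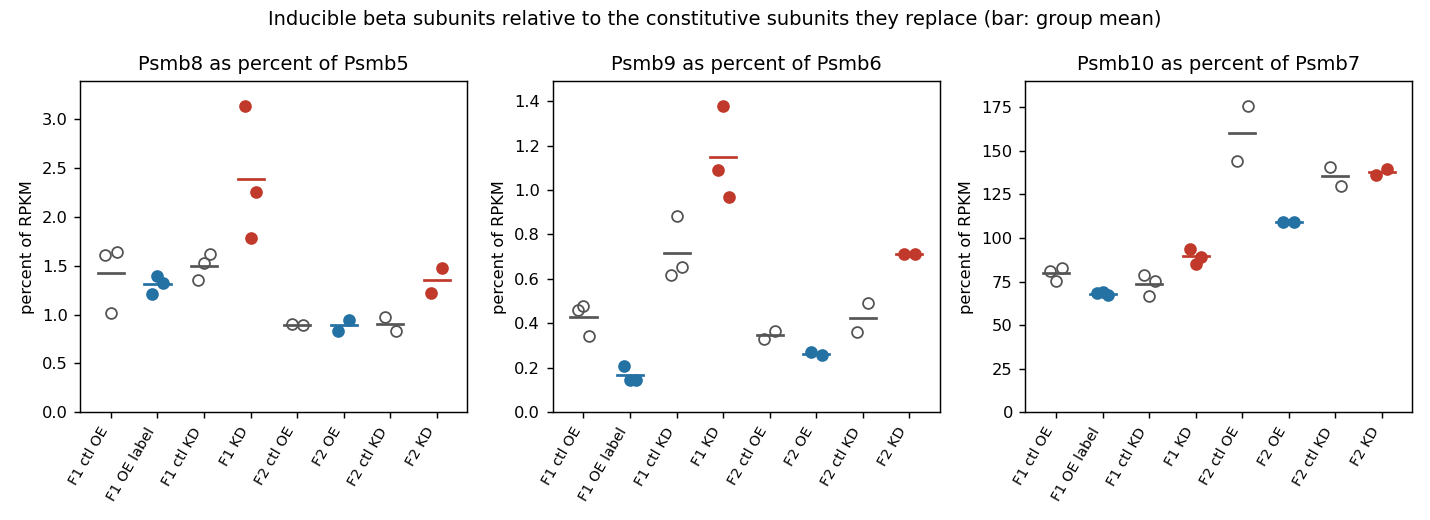
Vertical axes, RPKM of each inducible subunit as a percent of the constitutive subunit it replaces; horizontal axes, the 8 groups, 1 point per library and a bar at the group mean (open grey, controls; blue, overexpression labels; red, knockdown). Psmb8 and Psmb9 stay at or below 3.14% and 1.38% in all 20 libraries, whereas Psmb10 reaches 66.6 to 93.8% in the Foxk1 set and 109 to 176% in the Foxk2 set.

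Chaperones of the PAC family, Psmg1 to Psmg4, guide assembly of the alpha ring. In both overexpression comparisons 3 of the 4 rose, and in both knockdowns 3 of the 4 fell. Psmg1 (ENSMUSG00000022913.14, chromosome 16, 95979933 to 95990960, minus strand) was at 38.8, 41.2 and 40.7 RPKM in the labelled Foxk1 overexpression and at 27.3, 29.0 and 28 RPKM in its controls. The log2 fold change of 0.51 ± 0.060 (SE, n = 3 and 3, adjusted p = 4.48e-06) was the largest of any member there. After Foxk1 knockdown it was at 23.4, 20.8 and 18.3 RPKM, below all controls at 25.9, 26.2 and 27.5 RPKM (-0.35 ± 0.060, SE, n = 3 and 3, adjusted p = 0.000340).

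In the Foxk2 set Psmg1 was at 33.1 and 33.7 RPKM in overexpression against 24.2 and 25.4 RPKM (0.42 ± 0.074, SE, n = 2 and 2, adjusted p = 0.000215). It was at 21 and 20.6 RPKM in knockdown against 25.5 and 25.2 RPKM (-0.28 ± 0.074, SE, n = 2 and 2, adjusted p = 0.00739). Its groups were separate in all 4 comparisons. Psmg2 and Psmg4 moved in the same 4 directions, between 0.26 and 0.32 in the overexpression comparisons and between -0.35 and -0.16 in the knockdowns. Psmg3, at 1.58 to 2.58 RPKM, was called in none of the 4.

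The 6 ATPases Psmc1 to Psmc6 form the unfolding ring of the cap. Of these, 5 fell in Foxk2 knockdown, 3 fell in Foxk1 knockdown, 4 rose in the labelled Foxk1 overexpression, and 2 rose and 1 fell in Foxk2 overexpression. Among 6 genes, the counts in Foxk2 overexpression are not far from the 23.0% and 22.0% of all genes. Psmc4 (ENSMUSG00000030603.16, chromosome 7, 28041707 to 28050101, minus strand) was the ATPase that changed in all 4. In the Foxk2 set it was at 37.9 and 38.5 RPKM in knockdown against 47.3 and 46.7 RPKM (-0.30 ± 0.054, SE, n = 2 and 2, adjusted p = 0.000495), and at 47.0 and 48.4 RPKM in overexpression against 40.1 and 42.3 RPKM (0.21 ± 0.054, SE, n = 2 and 2, adjusted p = 0.00501). With Foxk1 it was at 33.2, 37.9 and 36.3 RPKM in the labelled overexpression against 28.4, 30.4 and 30.0 RPKM (0.27 ± 0.044, SE, n = 3 and 3, adjusted p = 0.000121). The knockdown libraries at 24.8, 24.7 and 23.1 RPKM lay below controls at 26.6, 26.5 and 27.6 RPKM (-0.15 ± 0.044, SE, n = 3 and 3, adjusted p = 0.0146).

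Psmc6 fell most among the ATPases in Foxk2 knockdown (-0.41), from 75.4 and 71.0 to 53.7 and 56.6 RPKM. Psmc3 was called in opposite directions in the overexpression comparisons. With 3 other ATPases it rose in the labelled Foxk1 overexpression from 40.7, 39.4 and 38.4 to 41.3, 43.8 and 44.2 RPKM (0.12 ± 0.034, SE, n = 3 and 3, adjusted p = 0.00767). In Foxk2 overexpression it fell from 44.2 and 45.7 to 40.2 and 41.2 RPKM (-0.14 ± 0.042, SE, n = 2 and 2, adjusted p = 0.0124). The groups did not overlap in either.

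All 11 non-ATPase subunits of the cap that the symbol rule took fell in Foxk2 knockdown. Their median was -0.193, which is smaller in size than those of the alpha and beta rings. In Foxk2 overexpression 5 rose and 1 fell, in the labelled Foxk1 overexpression 4 rose and 0 fell, and in Foxk1 knockdown 1 rose and 2 fell. The 2 falls of 11 in Foxk1 knockdown lie near the 15.5% of all genes that fell there. Psmd14 (ENSMUSG00000026914.15, chromosome 2, 61711694 to 61800376, plus strand), the deubiquitinase that cuts ubiquitin chains off the substrate, moved most. It was at 48.2 and 48.5 RPKM in the controls and 30.9 and 32.3 RPKM after Foxk2 knockdown, a loss of 34.5% in the mean (-0.60 ± 0.057, SE, n = 2 and 2, adjusted p = 8.78e-07). In Foxk2 overexpression it was at 49.8 and 55.3 RPKM against 36.5 and 35.8 RPKM (0.53 ± 0.057, SE, n = 2 and 2, adjusted p = 1.65e-06).

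In the labelled Foxk1 overexpression Psmd14 was at 52.3, 48.5 and 51.7 RPKM, above controls at 37.5, 39.0 and 38 RPKM (0.41 ± 0.047, SE, n = 3 and 3, adjusted p = 3.13e-06). In Foxk1 knockdown the libraries at 32.4, 33.0 and 33.7 RPKM overlapped the controls at 33.2, 36.6 and 37.8 RPKM (-0.11 ± 0.047, SE, adjusted p = 0.0687). Its partner Psmd7, which pairs with it in the cap, changed less: 0.17 in Foxk2 overexpression and -0.20 in Foxk2 knockdown, both called, and -0.02 and -0.06 in the Foxk1 set, neither called. Psmd2, the docking scaffold for shuttle proteins, was called in all 4 comparisons (0.12, -0.11, 0.32 and -0.19 in the order labelled Foxk1 overexpression, Foxk1 knockdown, Foxk2 overexpression, Foxk2 knockdown).

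Psmd4 (ENSMUSG00000005625.15, chromosome 3, 95032694 to 95042614, minus strand), a ubiquitin receptor of the cap, fell in both knockdowns. It was at 48.3 and 45.8 RPKM against 54.1 and 53.6 RPKM in the Foxk2 set, where groups were apart (-0.19 ± 0.044, SE, n = 2 and 2, adjusted p = 0.00301). Among the Foxk1 libraries it was at 40.7, 42.6 and 38.2 RPKM against 42.3, 43.4 and 44.5 RPKM, which overlap (-0.10 ± 0.036, SE, n = 3 and 3, adjusted p = 0.0411). It was called in neither overexpression comparison, with libraries at 46.6, 46.4 and 46.3 against 43.5, 45.6 and 43.6 RPKM under the Foxk1 label (0.07, adjusted p = 0.123) and at 48.9 and 50.2 against 50.2 and 51.7 RPKM under Foxk2 (-0.04, adjusted p = 0.541).

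Psmd1, the large scaffold beside Psmd2, was the one of the 31 constitutive subunits taken by the symbol rule that rose in Foxk1 knockdown. It went from 19.9, 20.9 and 21 to 21.6, 23.7 and 23.6 RPKM (0.15 ± 0.043, SE, n = 3 and 3, adjusted p = 0.0129), with groups apart. In Foxk2 knockdown it fell from 29.6 and 29.0 to 25.4 and 27.0 RPKM (-0.16 ± 0.053, SE, n = 2 and 2, adjusted p = 0.0289).

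Chaperones of the base of the cap, Psmd5, Psmd9 and Psmd10, all rose in the labelled Foxk1 overexpression (0.32, 0.28 and 0.14). Psmd10, also known as gankyrin, then parted from the other two. After Foxk2 overexpression it fell from 19.7 and 18.9 to 16.6 and 16.9 RPKM (-0.20 ± 0.060, SE, n = 2 and 2, adjusted p = 0.0142) while Psmd5 and Psmd9 rose. In Foxk1 knockdown it was at 20.3, 20.6 and 18.4 RPKM against an overlapping 18.7, 17.7 and 17.4 RPKM (0.14 ± 0.049, SE, n = 3 and 3, adjusted p = 0.0411). In Foxk2 knockdown it fell from 19.1 and 19.9 to 15.5 and 16.8 RPKM (-0.27, adjusted p = 0.00271; n = 2 and 2). The rises of Psmd10 were each lost without any 1 of 4 libraries, and its fall in Foxk2 overexpression without either of 2. Psmd9, at 3.13 to 5.01 RPKM, shares 25.5% of its exon bases with a gene on the opposite strand, Gm26745, and without stated strand information those reads cannot be told apart.

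PA28, made of Psme1 and Psme2, and PA200, made of Psme4, open the core gate without ubiquitin. Psme1 (ENSMUSG00000022216.16, chromosome 14, 55578123 to 55581529, plus strand) was at 46.9, 44.8 and 45.8 RPKM in the labelled Foxk1 overexpression, well above controls at 34.9, 34.5 and 34.5 RPKM (0.40 ± 0.051, SE, n = 3 and 3, adjusted p = 9.48e-06). With Foxk2 overexpressed it was at 40.9 and 43.3 RPKM against 28.5 and 32.7 RPKM (0.46 ± 0.062, SE, n = 2 and 2, adjusted p = 2.09e-05). In Foxk2 knockdown it was at 27.1 and 28.2 RPKM against 35.6 and 37.4 RPKM (-0.39 ± 0.062, SE, n = 2 and 2, adjusted p = 0.000149). In Foxk1 knockdown the values of 29.7, 28.8 and 26.0 RPKM overlapped the controls at 29.4, 29.0 and 30.6 RPKM (-0.07, adjusted p = 0.286).

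Psme2 (chromosome 14, 55587441 to 55591113), 5911 bases from Psme1, shares reads with Psme2b (chromosome 11, 48945354 to 48946190): 82.5% of the Psme2 transcript and 94.9% of that of Psme2b match the other at 99% identity, so neither level is certain. Psme2 was at 49.4 and 45.8 RPKM in Foxk2 knockdown against 71.7 and 74.4 RPKM (-0.61 ± 0.074, SE, n = 2 and 2, adjusted p = 1.11e-05). Psme2b was at 40.2 and 40.3 RPKM there against 60.8 and 63.3 RPKM (-0.62 ± 0.083, SE, n = 2 and 2, adjusted p = 3.18e-05), and these were the largest falls of that comparison. In Foxk2 overexpression Psme2 was at 70.4 and 71.4 RPKM against 52.0 and 63.3 RPKM (0.30 ± 0.074, SE, n = 2 and 2, adjusted p = 0.00347).

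In the labelled Foxk1 overexpression Psme2 was at 79.8, 78.2 and 72.2 RPKM against 62.0, 62.2 and 63.7 RPKM (0.29 ± 0.061, SE, n = 3 and 3, adjusted p = 0.000976). In Foxk1 knockdown it was at 51.5, 52.3 and 48.1 RPKM, just below controls at 53.3, 54.2 and 57.9 RPKM (-0.12, adjusted p = 0.136). Psme2b was called there, at 37.8, 43.4 and 36.0 RPKM against 45.9, 46.4 and 46.6 RPKM (-0.25 ± 0.068, SE, n = 3 and 3, adjusted p = 0.00991). Psme3, the nuclear PA28 subunit, changed by small and called amounts in all 4 comparisons (0.15, -0.11, 0.11 and -0.16 in the same order as above).

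Psme4 (ENSMUSG00000040850.17, chromosome 11, 30771726 to 30880361, plus strand) did not follow PA28. It was lower in the labelled Foxk1 overexpression, at 12.2, 10.7 and 11.4 RPKM against 13.8, 13.7 and 12.9 RPKM with no overlap (-0.22 ± 0.053, SE, n = 3 and 3, adjusted p = 0.0025). In Foxk1 knockdown it was at 12.3, 12.3 and 13.4 RPKM against 11.7, 12.3 and 12.4 RPKM (0.06, adjusted p = 0.413). In the Foxk2 set it was at 18.6 and 19.5 against 18.7 and 18.9 RPKM in knockdown (0.02, adjusted p = 0.887) and at 16.1 and 18.1 against 18.2 and 17.0 RPKM in overexpression (-0.04, adjusted p = 0.697). All 3 of these last comparisons overlapped.

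Psmf1 (ENSMUSG00000032869.15, chromosome 2, 151715812 to 151744186, minus strand) encodes PI31, a protein first described as an inhibitor of the core. It fell in Foxk2 overexpression from 8.01 and 8.41 to 6.74 and 7.09 RPKM (-0.23 ± 0.060, SE, n = 2 and 2, adjusted p = 0.00494). It rose in Foxk1 knockdown from 5.45, 6.15 and 6.06 to 6.47, 7.03 and 6.62 RPKM (0.18 ± 0.049, SE, n = 3 and 3, adjusted p = 0.0109). Both pairs of groups were apart. The first call was lost without empty vector replicate 2. The second was lost without scrambled shRNA replicate 1 or Foxk1 knockdown replicate 2, in a model of the 2 groups (0.176) and with the length and GC trend removed (0.099). In Foxk2 knockdown it was at 7.99 and 7.78 against 8.17 and 8.13 RPKM (-0.04, adjusted p = 0.655), and in the labelled Foxk1 overexpression at 6.16, 6.10 and 6.35 against 5.88, 6.58 and 6.07 RPKM (0.01, adjusted p = 0.937). Psmc3ip, the gene that shares the symbol alone, rose in both overexpression comparisons (0.35 and 0.31) and fell in Foxk2 knockdown (-0.40), and 29.8% of its transcript also matches transcripts of its overlapping neighbour Mlx, so its level is uncertain.

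Many genes moved in opposite directions in the 2 manipulations of Foxk2, whose controls are separate libraries. Those controls started from different levels. The 50 genes held 0.595% and 0.598% of assigned reads with scrambled shRNA, but 0.525% and 0.543% with the empty vector. Foxk2 overexpression, at 0.589% and 0.626%, thus lay near the scrambled shRNA controls. Of the 48 genes, 26 rose in Foxk2 overexpression and fell in Foxk2 knockdown, which is 26 of the 27 that rose and 26 of the 41 that fell, or 54.2% of the members against 10.4% of all genes tested. As 41 of the 48 fell in knockdown, much of this overlap follows from the single counts. Psmb10, Psmd8 and Psmd10 fell in both, as did 1.12% of all genes. With Foxk1, 11 genes rose under the overexpression label and fell in knockdown, being 11 of 27 and 11 of 15, or 22.9% of members against 8.82% of all genes. These 11 were Psma1, Psma6, Psmb4, Psmb6, Psmc1, Psmc4, Psmd2, Psme3, Psmg1, Psmg2 and Psmg4. Here too, much of the overlap follows from the single counts. Psmd10 rose in both, as did 1.62% of all genes.

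**Figure D5:**
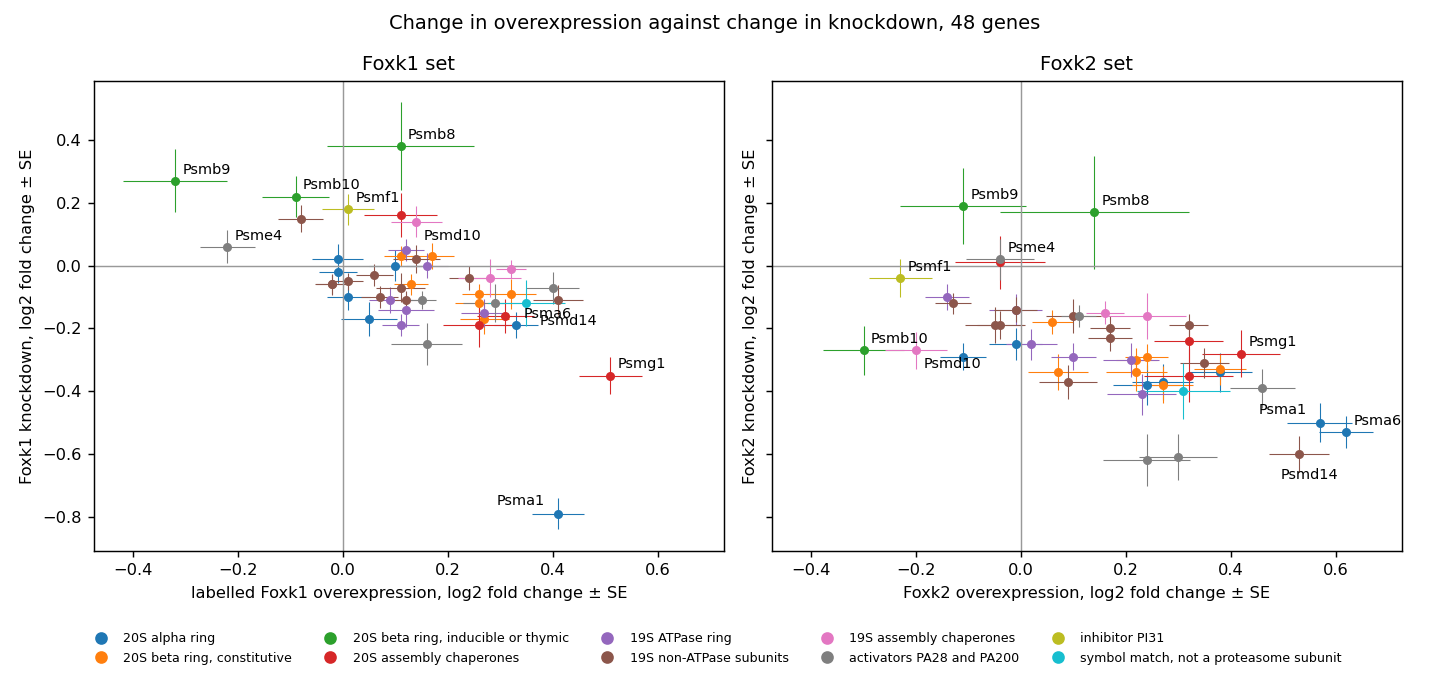
Horizontal axes, log2 fold change ± SE in overexpression (under the Foxk1 label at left, Foxk2 at right); vertical axes, log2 fold change ± SE in knockdown of the same factor; each point is 1 of the 48 genes tested, coloured by role. In the Foxk2 set the 26 genes called as higher in overexpression and lower in knockdown lie at the lower right. Psmb10, Psmd8 and Psmd10, called as lower in both, lie at the lower left. Calls are not marked in this plot. Psma1 at -0.79 is the lowest point in the Foxk1 set.

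Across factors, all 15 genes that fell in Foxk1 knockdown were among the 41 that fell in Foxk2 knockdown, or 31.2% of members against 8.03% of all genes tested. With so many members lower in Foxk2 knockdown, much of this overlap follows from the single counts. Psmb10, Psmd1 and Psmd10 rose in Foxk1 knockdown and fell in Foxk2 knockdown, as did 0.632% of all genes. Of the 27 genes that rose in each overexpression comparison, 20 were shared, or 41.7% of members against 13.5% of all genes. Much of this overlap too follows from the single counts, as 27 of the 48 members rose in each. Psmc3 and Psmd10 rose under the Foxk1 label and fell in Foxk2 overexpression, as did 1.13% of all genes.

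The difference between the effects of the 2 factors was tested in the same limma model as a contrast of contrasts. For knockdown, 21 members had a higher value with Foxk1 than with Foxk2 and 1 a lower value, against 6.68% and 7.63% of all genes tested. The 21 comprised 4 alpha and 5 constitutive beta subunits, Psmb10, 2 ATPases, 5 non-ATPase subunits, Psmd10 and 3 activator genes. The difference was 0.49 ± 0.074 for Psmd14 (SE, adjusted p = 0.000433), 0.36 ± 0.064 for Psmb2 (SE, adjusted p = 0.00153) and 0.39 ± 0.071 for Psmd6 (SE, adjusted p = 0.00171). Psma1 was the exception, at -0.29 ± 0.080 (SE, adjusted p = 0.0235), having fallen by 0.79 with Foxk1 and 0.50 with Foxk2, and its call was lost without any 1 of 6 libraries. Without Foxk2 scrambled shRNA replicate 2, 12 members in place of 21 had the higher value. The sets also differ in depth, replicate number and control levels, and these cannot be told apart from the factor.

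For overexpression, 5 members were higher and 6 lower with Foxk1 than with Foxk2, near the 11.6% and 13.5% of all genes tested. The 6 were Psma2, Psma4 and Psma6 (each -0.28), Psmb2 (-0.21), Psmd2 (-0.20) and Psmd7 (-0.19). The 5 were Psmd10 (0.33), Psmc3 (0.26), Psmf1 (0.24), Psmd5 (0.15) and Psmd8 (0.14). These counts were not steady: without Foxk2 overexpression replicate 1 they were 2 and 10, and without Foxk2 overexpression replicate 2 the 6 became 1.

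Proteins that work with the proteasome but lie outside the symbol rule moved less uniformly. Of 16 tested partners, 0 rose and 6 fell in Foxk2 knockdown, 6 rose and 3 fell in Foxk2 overexpression, 8 rose and 2 fell in the labelled Foxk1 overexpression, and 1 rose and 3 fell in Foxk1 knockdown. The medians in that order were -0.089, 0.056, 0.107 and -0.018. Of all genes tested, 18.0% rose and 15.7% fell in Foxk2 knockdown, 23.0% and 22.0% in Foxk2 overexpression, 24.1% and 23.8% under the Foxk1 label, and 20.4% and 15.5% in Foxk1 knockdown, so several of these counts lie near the background. Pomp, the maturation factor of the core, fell in Foxk2 knockdown from 27.2 and 28.4 to 22.9 and 23.0 RPKM (-0.27 ± 0.036, SE, n = 2 and 2, adjusted p = 2.49e-05). It stood at 24.5 and 24.5 against 24.2 and 24.8 RPKM in Foxk2 overexpression, so that it did not mirror the fall. Under the Foxk1 label it was slightly lower, at 21.9, 22.5 and 22.7 against 23.7, 23.5 and 24.4 RPKM (-0.09, adjusted p = 0.0165). Txnl1, a thioredoxin of the cap, rose by 0.36 in Foxk2 overexpression and 0.32 under the Foxk1 label and fell by 0.32 in Foxk2 knockdown and 0.18 in Foxk1 knockdown.

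Nfe2l1, which activates proteasome genes when proteolysis falls short, was abundant. It fell in Foxk1 knockdown from 142, 143 and 141 to 106, 105 and 112 RPKM, far outside the spread of its controls (-0.40 ± 0.028, SE, n = 3 and 3, adjusted p = 3.54e-08). In Foxk2 knockdown it was at 157 and 153 against 163 and 164 RPKM (-0.08, adjusted p = 0.109). After Foxk2 overexpression it fell from 162 and 164 to 146 and 149 RPKM (-0.15 ± 0.034, SE, n = 2 and 2, adjusted p = 0.00252), whereas under the Foxk1 label it rose from 125, 131 and 128 to 146, 151 and 147 RPKM (0.21 ± 0.028, SE, n = 3 and 3, adjusted p = 1.60e-05).

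Its direction was that of most called members in both Foxk1 comparisons and opposite to it in Foxk2 overexpression, and in Foxk2 knockdown it was not called. Whether its level bears on theirs was not tested. Nfe2l2, its relative that responds to oxidants, rose under the Foxk1 label, from 23.4, 25 and 22.5 to 29.5, 27.0 and 29.1 RPKM (0.27 ± 0.050, SE, n = 3 and 3, adjusted p = 0.000370). In the other 3 comparisons its differences lay between -0.03 and 0.06 and were not called.

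Genes that supply ubiquitin and deliver substrates were mixed, and the same shares of all genes are the background to their counts: 4 rises in Foxk1 knockdown, for one, are close to 20.4%. Of 20 tested, 2 rose and 7 fell in Foxk2 knockdown, 8 rose and 3 fell in Foxk2 overexpression, 9 rose and 6 fell under the Foxk1 label, and 4 rose and 8 fell in Foxk1 knockdown, with medians between -0.09 and 0.03. Ubb, which encodes polyubiquitin, rose in Foxk1 knockdown (0.30, adjusted p = 0.0249) and fell in Foxk2 overexpression (-0.38, adjusted p = 0.0176), where its libraries at 192 and 268 RPKM were themselves far apart. Derl1, a channel component for export from the endoplasmic reticulum, rose by 0.34 and 0.31 in the overexpression comparisons and fell by 0.48 and 0.36 in the knockdowns of Foxk1 and Foxk2. The shuttle factor gene Ubqln2 did the reverse, falling by 0.73 and 0.88 in the overexpression comparisons (Foxk1 label and Foxk2) and rising by 0.53 and 0.70 in the knockdowns.

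The antigen-processing genes that immunoproteasomes serve differed in direction from most constitutive subunits. Of 10 genes of class I presentation and interferon signalling, 0 rose and 6 fell in each overexpression comparison, 7 rose and 0 fell in Foxk1 knockdown, and 5 rose and 3 fell in Foxk2 knockdown. The medians were -0.35 under the Foxk1 label, -0.385 in Foxk2 overexpression, 0.254 in Foxk1 knockdown and 0.256 in Foxk2 knockdown. B2m, the light chain of class I molecules, fell by 0.79 under the Foxk1 label and by 0.37 in Foxk2 overexpression, and rose by 0.47 and 0.26 in the knockdowns of Foxk1 and Foxk2. The peptide transporter genes Tap1 and Tap2 fell by 0.91 and 0.97 in Foxk2 overexpression. Psmb8 and Psmb9, whose genes lie beside these transporters, were called in 1 of their 8 tests.

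Promoters of the genes that moved together were read from RefSeq sequences of GRCm38.p6 (the mm10 build), taking the 250 bases before each annotated start. Of the 50 members, 42 were matched among 27025 genes. Not among the 42 were Psma8, Psmb1, Psmb2, Psmb7, Psmc3, Psmd3, Psmd7 and Psmg2. Shown are Psmd14 (chr2:61711444-61711693, plus strand) and Psma1 (chr7:114276117-114276366, minus strand), with calls of at least 0.41 in size in 3 and 4 comparisons, Psmb5 (chr14:54617996-54618245, minus strand) and Psmb6 (chr11:70525107-70525356, plus strand), which hold the core of the element bound by Nfe2l1, and Psme4 (chr11:30771525-30771774, plus strand), which did not follow them. Each is written 5′ to 3′ on the gene's strand, and capitals mark TGACNNNGC, the core of the antioxidant-type element, CCAAT or its reverse complement ATTGG, and the forkhead letters GTAAACA, on either strand. The lines give the gene, then its sequence.
Psmd14: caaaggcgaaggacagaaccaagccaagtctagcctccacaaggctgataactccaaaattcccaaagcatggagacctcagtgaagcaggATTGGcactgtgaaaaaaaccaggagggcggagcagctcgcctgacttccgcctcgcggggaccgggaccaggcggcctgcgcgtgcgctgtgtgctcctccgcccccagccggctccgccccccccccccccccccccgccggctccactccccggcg
Psma1: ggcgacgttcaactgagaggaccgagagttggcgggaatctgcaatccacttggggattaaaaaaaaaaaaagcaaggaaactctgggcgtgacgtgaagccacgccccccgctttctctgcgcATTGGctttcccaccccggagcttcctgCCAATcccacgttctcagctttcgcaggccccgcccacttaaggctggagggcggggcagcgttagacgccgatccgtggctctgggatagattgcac
Psmb5: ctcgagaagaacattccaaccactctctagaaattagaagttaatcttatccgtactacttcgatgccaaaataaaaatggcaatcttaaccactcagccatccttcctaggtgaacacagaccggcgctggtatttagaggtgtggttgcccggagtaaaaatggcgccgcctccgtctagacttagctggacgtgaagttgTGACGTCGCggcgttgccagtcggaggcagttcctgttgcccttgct
Psmb6: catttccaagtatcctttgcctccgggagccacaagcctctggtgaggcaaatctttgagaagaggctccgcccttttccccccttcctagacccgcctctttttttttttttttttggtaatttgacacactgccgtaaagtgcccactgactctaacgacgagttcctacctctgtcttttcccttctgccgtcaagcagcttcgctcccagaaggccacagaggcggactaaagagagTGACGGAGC
Psme4: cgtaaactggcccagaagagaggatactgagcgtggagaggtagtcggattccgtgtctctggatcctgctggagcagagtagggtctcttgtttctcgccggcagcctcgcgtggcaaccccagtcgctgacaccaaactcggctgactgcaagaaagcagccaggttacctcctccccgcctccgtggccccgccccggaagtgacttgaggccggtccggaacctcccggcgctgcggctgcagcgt

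TGACNNNGC, in either orientation, stood in 5 of the 42 promoters (11.9%), those of Psmb5, Psmb6, Psmc6, Psmd9 and Psmd12, and in 11.5% of all promoters of the same length. CCAAT stood in 15 of 42 (35.7%) against 37.5% of all, with Psmd14 and Psma1 among the 15. The forkhead letters GTAAACA were in 0 of the 42 windows against 3.54% of all. TTCNNNGAA, letters bound by STAT factors, were in 2 of 42 (4.76%, Psmb8 and Psmg1) against 8.13% of all. Both strands were searched, and each motif was counted whether or not it overlapped another. Promoters with TGACNNNGC belonged to genes that fell in Foxk2 knockdown in 4 of 5 cases, Psmd9 being the exception, beside 41 of the 48 members tested.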

How the data were processed

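RNA-seq of 20 libraries of 3T3-L1 adipocytes was analysed from the RPKM values that the authors deposited for 48440 genes. Per the submitters' processing notes, HISAT2 2.1.0, Picard 1.141, featureCounts of Subread 1.5.1, edgeR and mm10 were used; their settings are not given in the sources used here. RPKM times exon length gave whole reads within 0.1 read, from which depth was taken (16739763 to 36157008 assigned reads per library, so low genes are the least precise).

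Groups followed the labels. Genes with at least 0.5 RPKM in at least 2 libraries (15981) were tested on log2(RPKM + 0.5) with limma 3.58.1 in R 4.3.3, with a trended variance, 8 group means and 12 residual degrees of freedom, two-sided, with Benjamini-Hochberg adjustment over all genes. The model was run on simulated data with known changes, as a check of the code and not of the calls given here. Near-identical copies were found with BLAST+ 2.17.0 at 99% identity over 100 bases; plots were drawn with matplotlib 3.10.9 and tables made with pandas 2.3.3 under Python 3.11.15. Promoters are RefSeq's.

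Any member could be named by role. Full statistics went to the 4 largest rises and 4 largest falls per comparison among called members with a mean of at least 1 RPKM in the higher group, and to a fixed set (Psmb5, Psmb8, Psmb9, Psmb10, Psmc4, Psmd4, Psmd14, Psme1, Psme2, Psme4, Psmf1, Nfe2l1, Nfe2l2, Pomp, Ubb); some genes the rule covers are not reported here. Psmc3, Psmd1, Psmd10 and Psmg1 outside the comparisons where that rule reached them were described after their values were seen. The members and lists were chosen with earlier results of these data known. Alternatives covered filter, pseudocount, scaling, model, replicate block, recovered reads, a length and GC correction and each library left out. No protein sequences were used here.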

Additional observations from a re-analysis of the deposited data

Results flagged for a closer look

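Members were singled out where the effect of Foxk1 and that of Foxk2 under the same kind of manipulation differed by the limma test of the difference itself, with Benjamini-Hochberg adjustment over all genes tested. Values are the Foxk1 effect minus the Foxk2 effect on the log2 scale. In knockdown the value was above 0 for Psmd12 (0.20), Psmb4 (0.21), Psmb1 (0.21), Psmb7 (0.23), Psmc2 (0.25), Psma7 (0.26), Psmd13 (0.27), Psmc6 (0.27), Psmb3 (0.29), Psmd1 (0.31), Psme1 (0.32), Psma2 (0.33), Psma6 (0.34), Psmb2 (0.36), Psme2b (0.37), Psmd6 (0.39), Psma4 (0.40), Psmd10 (0.40), Psmd14 (0.49), Psmb10 (0.49) and Psme2 (0.49). It was below 0 for Psma1 (-0.29). In overexpression, under the Foxk1 label, the value was above 0 for Psmd8 (0.14), Psmd5 (0.15), Psmf1 (0.24), Psmc3 (0.26) and Psmd10 (0.33). It was below 0 for Psma2 (-0.28), Psma6 (-0.28), Psma4 (-0.28), Psmb2 (-0.21), Psmd2 (-0.20) and Psmd7 (-0.19). The factor cannot be told apart from the set of libraries, which differed in depth and in control levels.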

How the results depend on the processing

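Counts of members called and medians kept their size within 1.5 times under most alternatives. Under the Foxk1 overexpression label 1 member fell in place of 2 with a filter at a mean of 1 RPKM or quantile normalization, and the median was 0.153 with the length and GC trend removed. In Foxk1 knockdown the median went from -0.066 to -0.105 with median-ratio scaling and -0.106 with the length and GC trend removed, 24 fell in place of 15 with median-ratio scaling, and 1 rose in place of 4 in a model of the 2 groups compared or with the length and GC trend removed. In Foxk2 overexpression 9 fell and the median was 0.128 with quantile normalization, 15 rose and 3 fell in a model of the 2 groups, and 3 fell with the length and GC trend removed. In Foxk2 knockdown the median was -0.310 with median-ratio scaling. For the difference between factors in overexpression 3 members were higher with median-ratio scaling and 3 lower with the length and GC trend removed, and in knockdown 0 were lower with quantile normalization. Signs turned for Psmb1 with quantile normalization (-0.015 under the Foxk1 label and -0.122 in Foxk2 overexpression) and for Psmd3 in Foxk2 overexpression with the length and GC trend removed (0.115). The cause was not tested.

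With each library left out in turn, 24 to 28 rose and 1 to 2 fell under the Foxk1 label (median 0.116 to 0.152), and 2 to 4 rose and 6 to 14 fell in Foxk1 knockdown (-0.085 to -0.055). In Foxk2 overexpression 20 to 29 rose and 1 to 6 fell (0.138 to 0.204), and in Foxk2 knockdown 0 rose and 35 to 36 fell (-0.298 to -0.243). For the difference between factors 2 to 6 were higher and 1 to 10 lower in overexpression, and 12 to 23 higher and 0 to 1 lower in knockdown. The single falls came without empty vector replicate 2 of either set, and Foxk2 overexpression had 2 falls without its replicate 1. The 2 rises in Foxk1 knockdown came without scrambled shRNA replicate 1 or knockdown replicate 1 or 2. In overexpression the difference was higher for 3 members without Foxk1 empty vector replicate 1, Foxk1 overexpression replicate 3 or Foxk2 empty vector replicate 2. Where a group was left with 1 library, it was assumed to vary like the others.

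Samples with the same replicate number did not deviate together (r from -0.086 to 0.033). The labels do not say whether libraries were prepared in pairs, and such a check cannot exclude it. In the Foxk2 set, with 2 libraries per group, r differs only in its sign within a comparison. With the replicate block, 28 rose and 2 fell under the Foxk1 label, 3 and 12 in Foxk1 knockdown, 26 and 6 in Foxk2 overexpression, 0 and 41 in Foxk2 knockdown, and the differences gave 5 and 6 in overexpression and 19 and 1 in knockdown. Calls held under every alternative for 23 of 29 members under the Foxk1 label, 4 of 19 in Foxk1 knockdown (Psma1, Psma6, Psmc1 and Psmg1), 11 of 32 in Foxk2 overexpression and 30 of 41 in Foxk2 knockdown. Without the 5 members with at least 20% of transcript or exon bases shared, a choice made after seeing the data, 37 of 43 fell in Foxk2 knockdown. Smaller shares remained among the 43, such as 17.2% of the Psmd13 transcript. Depth limits Psmb8 and Psmb9 most.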
